A study of Rattus norvegicus with 12 samples.

Results

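The transcripts examined here encode the enzymes that take glucose to pyruvate and lactate in rat choroid plexus: HK1, PFKL, ALDOA, TPI1, GAPDH, PGK1, ENO1, PKM, LDHA and LDHB. The 10 enzymes were chosen by name, and their rows were found through the symbols that the study's own gene lists pair with Ensembl identifiers. Of these 10, 9 had an identifier among the 32883 genes of the files, and all 9 passed the filter on low values, an average of 1 TPM or more over the libraries. GAPDH was not paired and has no values here. HK1 was paired only through a list of genes that the study had called as differing between phases, so its own call is a description and no independent evidence.

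Whole choroid plexus was sequenced from male Sprague-Dawley rats of 9 weeks kept on a cycle of 12 h of light and 12 h of dark. Tissue came from 6 rats in the light phase (zeitgeber time, ZT, 8) and from 6 other rats in the dark phase (ZT20), and both groups were of the same stock, with free access to food and no genetic change named in the labels. All rats were anaesthetised with ketamine and xylazine before the plexus of the lateral and the fourth ventricles was taken, in the dark phase without light other than an occasional red lamp, so every value is from anaesthetised animals. The 2 times give a difference between phases and no rhythm. The 12 libraries were sequenced as RNA and quantified as TPM, a unit that gives each gene's share of all transcripts in a library after correction for transcript length, with the same total in every library.

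In glycolysis, hexokinase traps glucose as a phosphate, phosphofructokinase commits it to breakdown, and aldolase splits the sugar into triose phosphates. The lower part of the pathway yields ATP at phosphoglycerate kinase and pyruvate kinase, and lactate dehydrogenase interconverts pyruvate and lactate. The choroid plexus is a highly vascular epithelium that secretes cerebrospinal fluid, and its ion pumps consume much ATP. The levels of mRNA given here do not measure enzyme activity or flux. In bulk tissue, fewer cells of a type and less RNA per cell cannot be told apart.

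Promoter sequence is shown for 3 members. PFKL and PKM encode enzymes of essentially irreversible steps and differed between the phases in opposite directions. LDHA was the only one of the 8 members searched with the E-box CACGTG in its promoter. Each run is the 120 bases directly before an annotated start, taken from RefSeq promoters of build GRCr8, which is not the build of the expression files. All 3 lie on the plus strand, at chr20:10663845-10663964 for PFKL, chr8:68953515-68953634 for PKM and chr1:106507972-106508091 for LDHA. Capitals mark the E-box CACGTG, a palindrome that CLOCK and other basic helix-loop-helix proteins can bind. They also mark the 5 bases ACGTG, read on either strand, which are contained in CACGTG but alone are not an E-box.
PFKL: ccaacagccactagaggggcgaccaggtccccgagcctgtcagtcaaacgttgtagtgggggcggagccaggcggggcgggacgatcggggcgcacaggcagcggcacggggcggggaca
PKM: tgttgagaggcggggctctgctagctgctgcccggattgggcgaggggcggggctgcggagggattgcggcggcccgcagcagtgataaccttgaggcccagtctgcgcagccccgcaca
LDHA: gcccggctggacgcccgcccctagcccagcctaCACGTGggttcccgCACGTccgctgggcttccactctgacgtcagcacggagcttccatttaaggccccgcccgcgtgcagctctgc
In the LDHA promoter, CACGTG begins 87 bases before the start. A lone CACGT, which is ACGTG on the other strand, begins 73 bases before it. The PFKL and PKM runs hold neither. Across promoter windows from 250 bases before to 50 bases after the start, CACGTG was in 6.42% of 33469 promoters and ACGTG on either strand was in 19.3%. Of the 9 members with values, all but PGK1 were matched, 8 members with 12 such promoters. CACGTG was found for 1 of these members (LDHA) and ACGTG for 4 (HK1, ALDOA, ENO1 and LDHA). HK1, ALDOA and ENO1 also had promoters without ACGTG. These counts are by member and the percentages by promoter, so they cannot be compared directly. The promoter of GAPDH, which has no values here, held ACGTG and not CACGTG. These are matches of letters, not binding sites.

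Members were abundant and ordered over a wide range. Averaged over the 12 libraries, ALDOA stood highest at 854 TPM, followed by LDHB at 768, ENO1 at 554, PKM at 419, PGK1 at 375, TPI1 at 313, LDHA at 275, PFKL at 67.1 and HK1 at 50.8 TPM. The entry enzymes HK1 and PFKL were thus lowest in mRNA, and no library put either of them above LDHA. Neighbours in this order overlapped in their ranges for ALDOA and LDHB, PKM and PGK1, PGK1 and TPI1, and TPI1 and LDHA. Within single libraries the order nevertheless held for PKM over PGK1 and for TPI1 over LDHA in 12 of 12, and for ALDOA over LDHB and PGK1 over TPI1 in 11. The 9 members summed to 3661 ± 144 TPM in light-phase libraries and to 3689 ± 126 TPM in dark-phase libraries (SD over 6 rats each), with ranges of 3511 to 3849 and 3530 to 3902 TPM that overlap almost entirely.

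To determine how each enzyme differed between the phases, the log2 of scaled TPM plus 0.5 was tested with limma across 12513 genes, with Benjamini-Hochberg adjustment (FDR) and positive values higher in the dark phase. Ranges, means and percentages are of TPM as deposited, while log2 fold changes are of scaled TPM, so the percentage and the fold change of a gene need not match. Of the 9 members, 5 passed an FDR of 0.05, and they did not move one way. HK1, PGK1 and PKM were up-regulated in the dark phase, PFKL and TPI1 in the light phase, and ALDOA, ENO1, LDHA and LDHB did not pass. Among all tested genes 17.7% passed, with 9.3% up-regulated in the dark and 8.37% in the light, and of 2542 genes averaging 40 TPM or more, a level that every member exceeded, 24% passed. The median log2 fold change was 0.012 over the members and -0.0103 over all tested genes, and the median absolute change was 0.126 and 0.117. The 6 light-phase and 6 dark-phase values did not overlap for 4 members (HK1, PFKL, PGK1 and PKM), against 8.26% of all tested genes. Without HK1, 4 of 8 members passed, 2 in each direction. With 9 genes, these counts describe the members and set them apart from no other group.

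**Figure D1:**
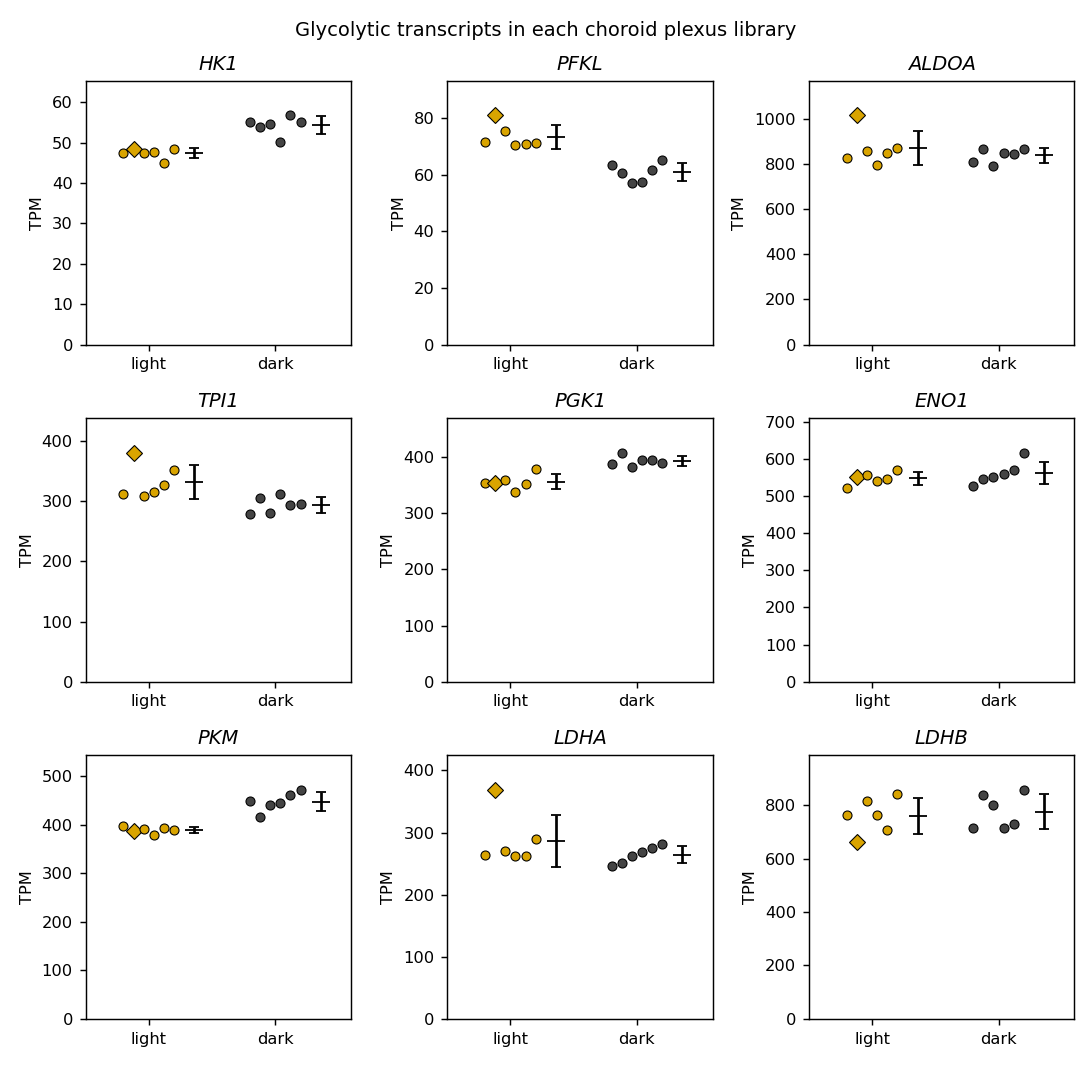
TPM (vertical axes, each starting at 0) of the 9 members in 6 light-phase (yellow) and 6 dark-phase (grey) libraries, with the mean and SD beside each group and light replicate 2 drawn as a diamond. The phases do not overlap for HK1, PFKL, PGK1 and PKM, and light replicate 2 lies above every other library for ALDOA, TPI1, LDHA and PFKL.

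At the first step, HK1, the hexokinase of most tissues with constant glucose use, ranged from 44.9 to 48.5 TPM in the light (median 47.6), against 50.2 to 56.7 TPM in the dark (median 54.8). Every dark-phase library was above every light-phase library. In deposited TPM the dark-phase mean was 14.5% higher. After scaling, the log2 fold change was 0.17 (SE 0.037, limma FDR = 0.00612).

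PFKL, the liver-type subunit of phosphofructokinase, went the other way. It ranged from 70.4 to 80.9 TPM in the light (median 71.2), against 57.1 to 65.0 TPM in the dark (median 61.1). The lowest light-phase library was above the highest dark-phase library. The light-phase mean, 73.3 ± 4.14 TPM, was 20.6% above the dark-phase mean, 60.8 ± 3.16 TPM (SD, n = 6 each). The log2 fold change of -0.29 (95% interval -0.37 to -0.21, limma FDR = 0.000283) was the largest in size of the 9 members, and PFKL was the one member called under all 25 alternative settings.

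The muscle-type subunit PFKM, which assembles with PFKL into the same tetramers, had a similar level and no call: 59.7 to 79.7 TPM in the light (median 76.9) and 68.7 to 76.0 TPM in the dark (median 72.3), with a log2 fold change of -0.05 and FDR = 0.686. That lack of a call rested on light replicate 2, which held the lowest PFKM: without it PFKM was called lower in the dark (-0.12, FDR = 0.0128), and over all alternatives its FDR ran from that value to 0.941. Within each library the ratio of PFKL to PFKM was 0.889 to 1.36 in the light (median 0.952) and 0.783 to 0.872 in the dark (median 0.849). All dark-phase ratios lay below all light-phase ratios. The difference was -0.24 on the log2 scale (95% t interval with pooled variance, -0.45 to -0.03). A 2-sided exact permutation test over 924 splits gave p = 0.00216, the smallest p that 6 against 6 libraries allow. After adjustment over the 2 ratios tested, this p was 0.00433. PFKL alone already held the phases apart, so the p of the ratio is not independent of the PFKL result. Without light replicate 2, which held the ratio of 1.36, the difference was -0.15. The exact permutation p was again 0.00216, small by construction as the phases stayed apart. The platelet-type subunit PFKP, at a mean of 11.5 TPM, did not pass (FDR = 0.0843), although it did without dark replicate 3 (FDR = 0.0307). PFKFB2 makes and breaks down a fructose bisphosphate that activates phosphofructokinase, other than the one phosphofructokinase itself makes. PFKFB2 was 14.6 to 19.7 TPM in the light and 23.5 to 27.4 TPM in the dark, and its log2 fold change was 0.45 (FDR = 0.00124). Its direction was the opposite of that of PFKL, and like HK1 and PFKP it was named only through lists of genes the study had called.

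ALDOA, the aldolase of most tissues, spanned 796 to 1015 TPM in the light (median 853) and 790 to 868 TPM in the dark (median 848). The medians nearly coincided, and the highest value came from light replicate 2. The log2 fold change was -0.07 (95% interval -0.17 to 0.03, limma FDR = 0.336). TPI1, which interconverts the 2 triose phosphates that aldolase makes, was 309 to 380 TPM in the light (median 321) and 279 to 311 TPM in the dark (median 295). All but 1 of the dark-phase libraries lay below the lowest light-phase library. The log2 fold change was -0.19 (SE 0.052, limma FDR = 0.0218), and the light-phase mean was 13.1% higher. The call was lost without dark replicate 3 (FDR = 0.0509), and over 25 alternatives the FDR ran from 0.0152 to 0.392.

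The enzymes of the lower pathway that yield ATP were higher in the dark phase. PGK1, which makes the first ATP of the pathway, was 338 to 379 TPM in the light (median 354) and 383 to 408 TPM in the dark (median 392). The groups were close but did not overlap. In deposited TPM the dark-phase mean was 10.3% higher. After scaling, the log2 fold change was 0.12 (SE 0.037, limma FDR = 0.0379). This was the least stable call: it was lost in 13 of 25 alternatives, among them 10 of the 12 that left out 1 library, with an FDR of 0.00832 to 0.109 over all 25.

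PKM, the pyruvate kinase of muscle, brain and many other tissues, had the lowest coefficient of variation of the members in the light phase, 1.59%, with values of 379 to 397 TPM (median 391), against 416 to 473 TPM in the dark (median 447). All dark-phase libraries were above all light-phase libraries. The means were 390 ± 6.21 and 448 ± 19.3 TPM (SD, n = 6 each), 14.8% higher in the dark as deposited, and the log2 fold change after scaling was 0.18 (SE 0.034, limma FDR = 0.00355). The values sum the PKM isoforms, so the M1 and M2 forms were not separated. ENO1, the enolase between them, was 520 to 570 TPM in the light (median 548) and 527 to 617 TPM in the dark (median 555), with a log2 fold change of 0.02 (95% interval -0.08 to 0.11, FDR = 0.848).

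LDHA and LDHB encode the subunits of lactate dehydrogenase, of which the first is abundant in tissues that form lactate and the second in tissues that oxidise it. LDHB was the more abundant in every library. It was 664 to 841 TPM in the light (median 764) and 715 to 858 TPM in the dark (median 766), with a log2 fold change of 0.01 (95% interval -0.15 to 0.18, limma FDR = 0.936). LDHA was 262 to 369 TPM in the light (median 267) and 247 to 282 TPM in the dark (median 265), with a log2 fold change of -0.13 (95% interval -0.27 to 0.02, FDR = 0.238). The difference depended on light replicate 2, at 369 TPM: without it the log2 fold change was -0.06 (FDR = 0.368), and in deposited TPM the dark-phase mean differed from the light-phase mean by -2.02% instead of -7.7%. The ratio of LDHA to LDHB was 0.331 to 0.556 in the light (median 0.345) and 0.299 to 0.377 in the dark (median 0.337). It differed by -0.14 on the log2 scale (95% t interval with pooled variance, -0.42 to 0.15) and by -0.02 without light replicate 2. The 2-sided exact permutation test over all libraries gave p = 0.364, also after adjustment over the 2 ratios. The interval leaves a change of either sign possible.

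**Figure D2:**
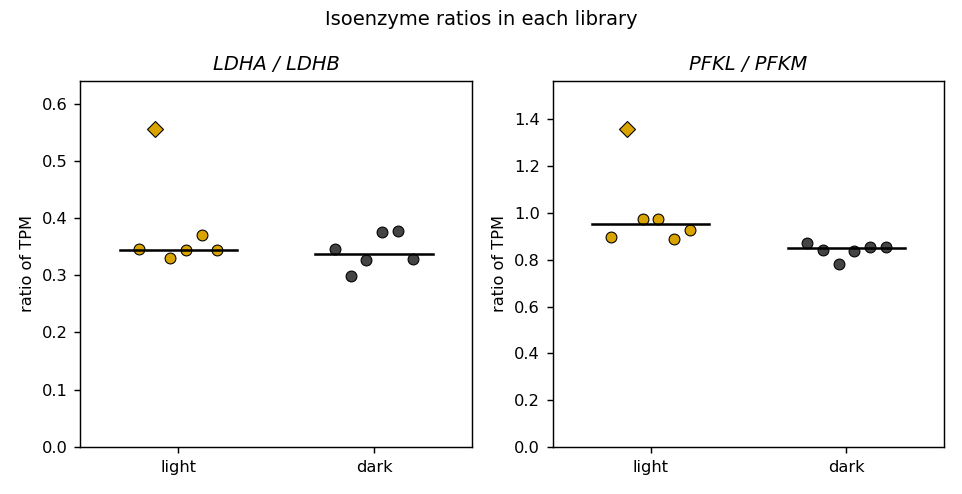
Ratio of TPM within each library (vertical axes, starting at 0) for LDHA over LDHB and PFKL over PFKM in 6 light-phase (yellow) and 6 dark-phase (grey) libraries, with lines at the medians and light replicate 2 as a diamond. PFKL over PFKM was 0.783 to 0.872 in the dark phase and at least 0.889 in the light phase, while LDHA over LDHB overlapped.

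Light replicate 2 stood apart in its tissue content. Its summed haemoglobin was 29697 TPM, against 4319 to 11183 TPM in the other 11 libraries. The mural-cell markers summed to 420 against 165 to 250 TPM, the macrophage markers to 955 against 591 to 867 TPM, the endothelial marker PLVAP was 124 against 56.7 to 96.8 TPM, and TTR, the main product of the choroid plexus epithelium, was 253710 against 286835 to 309722 TPM. Of the other epithelial markers, 7 lay within the range of the other libraries and FOLR1 and OTX2 just below it. The summed stromal markers, at 2924 TPM, were within the range, but they moved in opposite directions. SPARC was above the other libraries (989 against 626 to 906 TPM). DCN (74.1 against 81.6 to 155 TPM) and IGF2 (1800 against 1958 to 2276 TPM) were below them, and PDGFRA was within their range. The same library held the highest LDHA, ALDOA, TPI1 and PFKL and the lowest LDHB and PFKM. Without it, the non-overlap of HK1, PFKL, PGK1 and PKM was unchanged, the dark-phase mean of PFKL differed by -15.3%, and PGK1 was no longer called (FDR = 0.0599). With summed haemoglobin as a covariate, an alternative chosen after the data were seen, TPI1 (FDR = 0.0639) and PGK1 (FDR = 0.092) lost their calls. The part of blood and vessel content in the values of this library was not tested beyond these fits.

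All 10 epithelial markers were found, with a summed level of 260062 to 316648 TPM, and the muscle marker CKM was at most 0.27 TPM. Of these 10 markers 6 passed the test between phases themselves: CLIC6, KL, PRLR and OTX2 were higher in the dark and AQP1 and SLC4A5 in the light. The mural marker TAGLN (FDR = 0.0267) and the macrophage marker PTPRC (FDR = 0.0484) were higher in the light. PTPRC was low, at 1.93 to 2.97 TPM in the light and 1.27 to 2.14 TPM in the dark. It was named only through a list of genes the study had called, so its call is a description. The other markers of stroma, vessels, blood and immune cells did not pass, among them the macrophage markers CD74 (FDR = 0.81) and LYZ2 (FDR = 0.787). The part of these shifts in the members' changes was not tested. The ratio of summed FPKM, a unit that corrects each gene for length but does not fix the total, to summed TPM, which depends on the lengths of the transcripts in a library, was 0.953 to 0.987 in the light phase and 0.934 to 0.96 in the dark phase. With this ratio as a covariate, the fold changes of HK1, PGK1 and PKM were 0.18, 0.2 and 0.21 and that of TPI1 was -0.14, but none of these 4 members was called (FDR = 0.135, 0.0729, 0.0625 and 0.392), and PFKL alone was. The ratio was mostly lower in the dark phase, so its part and that of phase cannot be fully told apart.

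**Figure D3:**
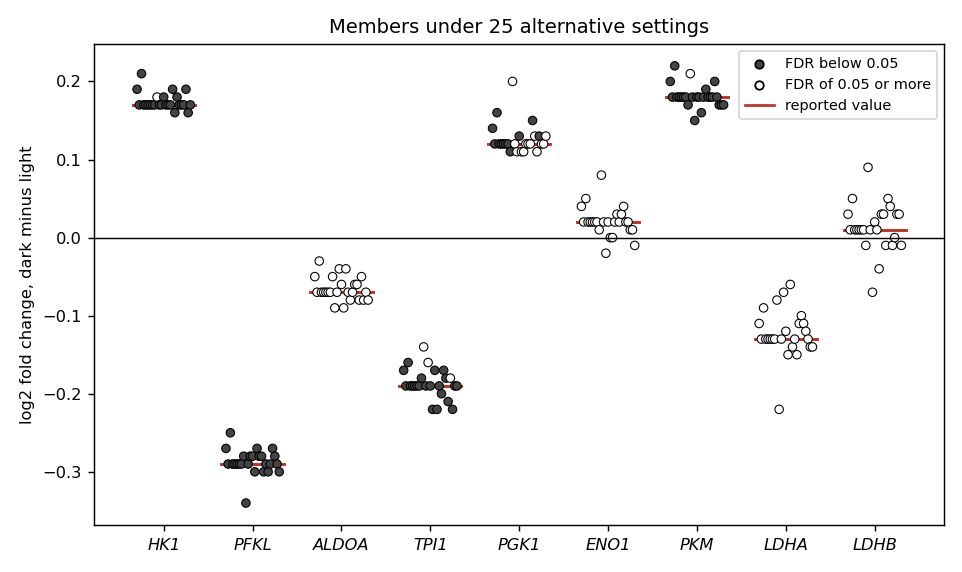
Log2 fold change of each member, dark minus light (vertical axis), under 25 alternative settings, with filled points where the limma FDR was below 0.05, open points where it was not, and a red line at the reported value. PFKL kept its call in all 25 and PGK1 lost it in 13, while ENO1 and LDHB lay on both sides of 0.

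No neighbouring enzyme of the pathway passed at the reported setting. The study's own list of called genes, from DESeq2 on read counts, nevertheless held PFKP, PGAM1, BPGM and DLAT. It also held the members HK1, PGK1 and PKM, while PFKL, TPI1 and the members not called here were not found in it. The list was held only in part, so the study's call for those members is unknown. DLAT, like PFKP, was named only through that list. Of 20 other glycolytic enzymes listed, 6 had an identifier (GPI, PFKM, PFKP, ALDOC, PGAM1 and BPGM), and 0 passed an FDR of 0.05 in limma, with 3 at an unadjusted p below 0.05 (PFKP, PGAM1 and BPGM). GPI, the isomerase between HK1 and PFKL, had means of 206 and 199 TPM in the light and dark phase (FDR = 0.216). PGAM1, the mutase between PGK1 and ENO1, had means of 352 and 381 TPM (log2 fold change 0.09, FDR = 0.0921), and ALDOC, the brain-type aldolase, had means of 54.3 and 53.0 TPM. Of 14 genes for the entry of pyruvate into mitochondria, 7 had an identifier and 0 passed in limma, with 2 at an unadjusted p below 0.05 (DLAT and DLD). The pyruvate carrier subunits MPC1 and MPC2, the most abundant of them, had means of 205 and 162 TPM in both phases. PGAM1, DLAT and DLD were called as well when the TPM were left unscaled or taken without TTR. DLAT was also called with a filter of 5 TPM (FDR = 0.0448) and with sample weights (0.0314). The same held under the scaling over all genes above 0 (0.0482), which was run first and later replaced. Leaving out 1 library also called PGAM1 (without dark replicate 1, FDR = 0.0269), DLAT (without light replicate 6, 0.0349, or dark replicate 2, 0.027) and DLD (without light replicate 6, 0.0233).

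Among 10 regulators, 3 had an identifier. PFKFB2 rose in the dark phase, and the hypoxia-inducible factors HIF1A (54.1 and 50.2 TPM in light and dark, FDR = 0.132) and EPAS1 (76.4 and 80.0 TPM, FDR = 0.536) did not pass. HIF1A was called lower in the dark without light replicate 2 (log2 fold change -0.17, FDR = 0.00753), with haemoglobin as covariate (-0.18, FDR = 0.0182) and with sample weights (-0.16, FDR = 0.0239), and its FDR reached 0.912 in another alternative. Of 8 pentose phosphate enzymes, RPE and TKT had an identifier and 0 passed in limma, nor had either an unadjusted p below 0.05. TKT, a transketolase, had means of 156 and 133 TPM (FDR = 0.272), and RPE, an epimerase, of 55.4 and 60.5 TPM (FDR = 0.22).

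Of 8 carriers of glucose and lactate, 5 had an identifier and 3 passed, against 17.7% of all tested genes. The glucose carrier SLC2A12 was higher in the dark, with means of 105 and 123 TPM in light and dark (log2 fold change 0.21, FDR = 0.0238), and the glucose carrier SLC2A1 was lower, with 44.2 and 38.9 TPM and no overlap between the phases (-0.20, FDR = 0.00865). The lactate carrier SLC16A1 was also lower in the dark, with means of 9.87 and 7.34 TPM (-0.43, FDR = 0.0122). SLC16A8 (44.7 and 33.5 TPM, FDR = 0.0808) and BSG, the partner protein of lactate carriers (3315 and 3321 TPM), did not pass. SLC2A1, SLC16A1 and SLC16A8 were named only through lists of genes the study had called, so their calls are a description. Of the other 2 carriers, SLC2A12 and BSG, 1 passed. The SLC2A12 call was lost without dark replicate 1 (FDR = 0.0508), with haemoglobin as covariate (0.0561) and with the ratio of FPKM to TPM as covariate (0.425), and the last also ended the calls of SLC2A1 (0.231) and SLC16A1 (0.252). SLC16A8 passed without light replicate 3 (FDR = 0.0411).

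**Figure D4:**
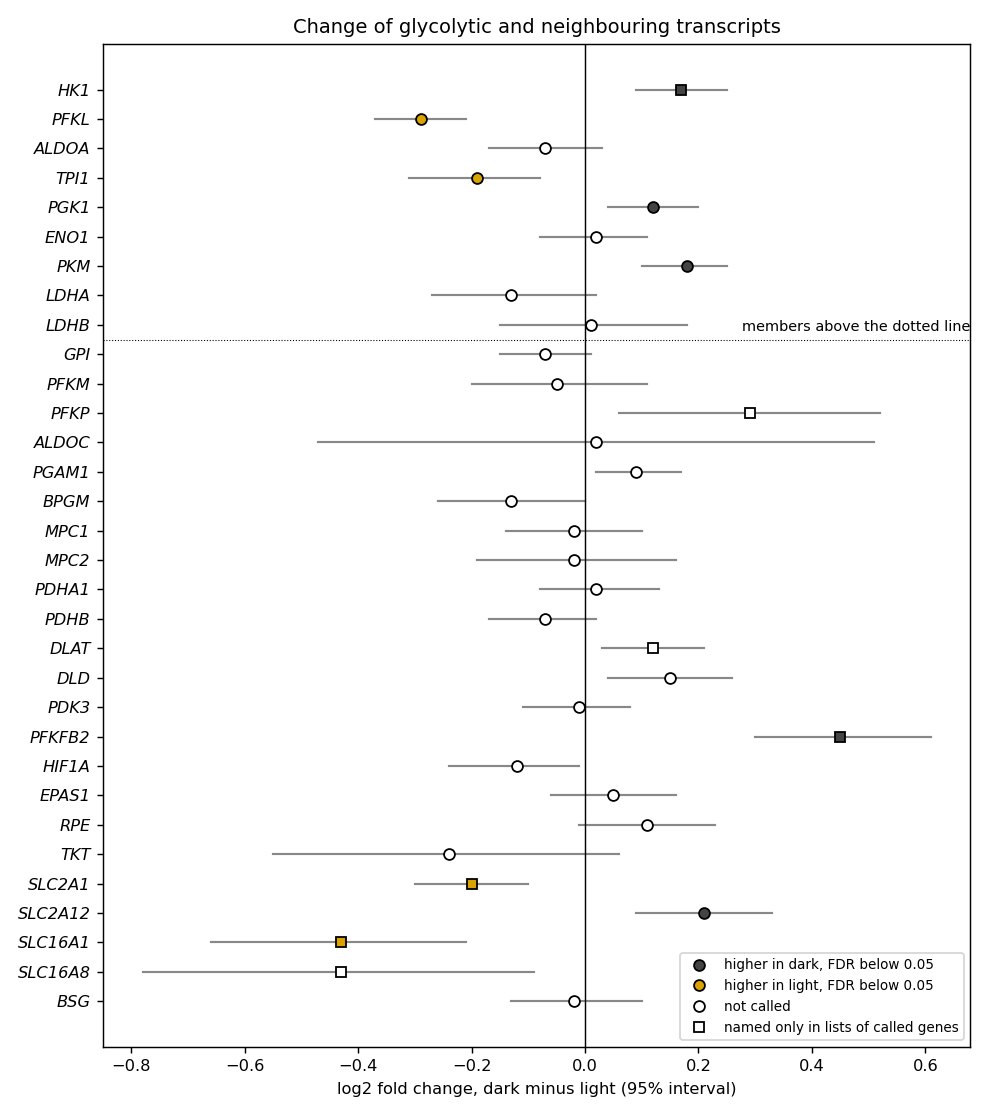
Log2 fold change, dark minus light, with its 95% interval (horizontal axis) for the 9 members, above the dotted line, and 23 neighbouring genes. Dark points passed an FDR of 0.05 and were higher in the dark phase, yellow points were higher in the light phase, open points did not pass, and squares are genes named only through lists of called genes. The members' called changes, -0.29 to 0.18, lie on both sides of 0.

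To describe which genes varied with each member from rat to rat, the phase means were removed and Pearson's r was taken over the 12 libraries against 1682 genes that had a symbol and averaged 60 TPM or more. The libraries share their depth and tissue content, so these values are a description. HK1 was closest to CPE (r = 0.92) and GANAB (0.87), PGK1 to ADI1 (0.95) and UBL5 (0.93), PKM to DBI (0.86), and LDHB to COX6B1 (0.92) and TCN2 (0.91). PFKL was closest to LOC100361457 (0.8) and EEF2 (0.79), TPI1 to RPL23 (0.91) and ENO1 to DCTN3 (0.86). ALDOA lay closest to LOC103693375 and to the ribosomal protein genes RPL7 (both 0.97) and RPS12 (0.96), LDHA to CRIP2 and CREB3 (both 0.87). Without light replicate 2, CPE and GANAB remained the closest to HK1 (0.95 and 0.9), and ENO1 and LDHA became the closest gene to each other (r = 0.89 over 11 libraries, 0.21 over 12). TCN2 led for LDHB, and for the other 5 members the closest gene was a different one as well: RGD1309651 for PFKL (0.91), RPL37 for ALDOA (0.97), MFF for TPI1 (0.96), LOC100362432 for PGK1 (0.94) and UBALD2 for PKM (0.85). The 36 pairs of members included ALDOA with TPI1 at 0.85 and ALDOA with LDHA at 0.82 over 12 libraries, and LDHA with LDHB at -0.34. Without light replicate 2 these were 0.82, 0.59 and 0.46, so the sign of the last rested on that library.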

How the data were processed

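RNA from the choroid plexus of 12 rats, 6 in each phase with 1 library per rat, was sequenced as paired-end reads. The authors aligned the reads to Rnor_6.0 with STAR 2.7.9a and quantified genes with RSEM 1.3.3, and the deposited values are the TPM and FPKM of RSEM. FPKM was used only for relative depth, the ratio of FPKM to TPM and an alternative. RSEM divides reads that map to several genes, so members with near-identical pseudogene copies may have uncertain levels. The authors ran their own test with DESeq2 on read counts. No counts were used here, and the precision of single values is unknown beyond the spread between rats; relative depth ran from 0.865 to 1.388. No 2 libraries were identical, with correlations of 0.958 to 0.983 over 66 pairs.

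Libraries were scaled by a trimmed mean of ratios (30% of ratios and 5% of levels trimmed at each end) over the 12513 of 32883 genes that averaged 1 TPM or more. This replaced a scaling over all genes above 0, run first, after the data had been seen. Phase alone was tested with limma 3.58.1 in R 4.3.3, with a trend of variance on mean, on log2(TPM + 0.5), which understates changes of low genes. Python 3.11.15, numpy 2.4.6, pandas 2.3.3, scipy 1.17.1 and matplotlib 3.10.9 were used for exact tests and figures. The limma fit was also run on simulated data. It called 61% of genes changed by 0.5 on the log2 scale, 90% of those changed by 1, and 7 unchanged genes. Changes as small as those of the members were not simulated, so the recovery of such changes is unknown. Alternatives were other scalings, pseudocounts of 0.1 and 1, filters, robust variances, sample weights, covariates, a replicate block and leaving out each library.

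The members and lists were chosen with earlier results of these data known. Symbols came only from the study's gene lists, held in part here. The text names every member with an identifier, the genes of neighbouring lists that passed, the 2 most abundant of each list, their isoenzymes, and the genes that varied most like each member. Replicate numbers were checked for pairing, and did not pair the libraries. Promoters are from RefSeq, build GRCr8.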

Additional observations from a re-analysis of the deposited data

Results flagged for a closer look

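In each phase of 6 libraries, the values of the members, their neighbours and both ratios were examined for a library far from the other 5, in 68 groups, of which 10 stood apart and 3.4 would by chance at 1 in 20. Light replicate 2 accounts for 5: ALDOA at 1015 TPM against 796 to 872, LDHA at 369 TPM against 262 to 290, EPAS1 at 91.5 TPM against 72.3 to 75.0, the ratio of LDHA to LDHB at 0.556 against 0.331 to 0.37, and the ratio of PFKL to PFKM at 1.36 against 0.889 to 0.976. This is the library with the high haemoglobin. The 68 groups share libraries, and both ratios repeat genes that were also examined singly. The flags are therefore not independent, and 10 against 3.4 is a description and no test.

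HK1 was low in light replicate 5, at 44.9 TPM against 47.5 to 48.5 in the other light-phase libraries. ALDOC stood apart in both phases, at 107 TPM in light replicate 1 against 36 to 47.3 and at 81.3 TPM in dark replicate 6 against 44.6 to 49.2. TKT was 186 TPM in dark replicate 1 against 108 to 131, and SLC16A1 was 9.95 TPM in dark replicate 6 against 5.97 to 7.35.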

How the results depend on the processing

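Directions and calls were recomputed under 25 alternatives for each member and 15 for each ratio. Of the members, 5 were called, 1 with the ratio of FPKM to TPM as covariate (0 up-regulated in the dark and 1 in the light) and 3 with haemoglobin as covariate (1 higher in the light phase). Leaving out 1 library gave 4 to 5, with 1 to 2 higher in the light phase, the lower value without dark replicate 3. Of the neighbouring genes 4 were called, 7 with TPM as deposited or without TTR, 1 with the ratio as covariate, and 4 to 6 when 1 library was left out. The number was 5 with the filter of 5 TPM or the scaling over all genes above 0, and 6 with sample weights. Over all genes, 342 were called with the ratio as covariate against 2211, and without TTR the split of 1164 higher in the dark and 1047 higher in the light became 1456 and 737. LDHB was -0.01 with sample weights and -0.07 with haemoglobin, ENO1 was -0.02 with haemoglobin, and leaving out 1 library gave -0.04 to 0.05 for LDHB and -0.01 to 0.04 for ENO1; neither passed in any fit. The cause of these shifts was not tested.

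The ratio of PFKL to PFKM kept its direction and its call in all 15 (-0.27 to -0.15, exact p of 0.00216 to 0.0312), and that of LDHA to LDHB kept its direction and passed in none (-0.17 to -0.02). FPKM in place of TPM cannot change a ratio within a library, and scaling with a pseudocount hardly can, so these settings are no check. The phases did not overlap for PFKL to PFKM, so leaving out 1 library left them apart and p small by construction. Same-numbered libraries had deviations that correlated at -0.107 to 0.047, and 0 of 6 light-phase libraries correlated best with their own number. The replicate block gave 1588 calls over all genes and 4 among members, with PGK1 lost (FDR = 0.109), and exact p = 0.688 and 0.0312 for LDHA to LDHB and PFKL to PFKM, the last the smallest that 6 pairs allow. Without read counts, counting error could not be separated from the spread between rats, and a member that did not pass may still differ within its interval.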
